A study of Mus musculus with 18 samples.

Results

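The 85 genes described here had lower messenger RNA levels in dendritic cells (DCs) squeezed between 2 surfaces than in DCs left free, in wild-type (WT) and in knockout (KO) cells, and were not lower after lipopolysaccharide (LPS) by more than a small margin. They were chosen by measured values, namely group means of log2(normalized count + 1). The confined minus nonconfined difference had to be below -0.8 in WT and below -0.8 in KO cells, and the mean of the 6 LPS libraries minus the mean of the 6 nonconfined libraries had to be above -0.3. A gene also needed a symbol and a mean of at least 50 normalized counts in at least 1 condition, which 12036 of 62197 rows of the table met. Of these, 1393 passed the threshold in WT, 966 passed it in KO, 611 passed both, and 85 (13.9% of the 611) also passed the LPS threshold. A further 7 rows met the values but carry no symbol and were left out.

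The libraries are bulk RNA-seq of polyadenylated RNA from mouse bone marrow cells grown for 10 days with a supernatant that contains granulocyte-macrophage colony-stimulating factor (GM-CSF). The 6 conditions of 3 libraries each make 18 libraries. The mutated gene is Pla2g4a, which encodes the phospholipase cPLA2, an enzyme that releases arachidonic acid from membranes and is recruited to a stretched nuclear envelope. The design asks how squeezing alters DC transcription, whether cPLA2 takes part, and how this differs from activation by a bacterial product.

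Nonconfined WT and nonconfined KO cells were untreated and collected when the culture ended. Confined WT and confined KO cells were held at a height of 3 µm and are labelled as collected 4 h after confinement. LPS-treated WT and KO cells, not confined, received 100 ng/ml LPS for 30 min, were washed and were collected the next day. The duration of LPS is that of the labels, and the study's methods give a shorter one. The collection times of the 3 treatments therefore differ. According to the study's methods, the KO mice carry a conditional Pla2g4a allele and a Cre recombinase driven by the promoter of Itgax, the gene of the DC integrin CD11c, so deletion is limited to cells that use this promoter. The labels do not say that the 3 libraries of a condition came from separate animals, and p-values then measure only the spread between these libraries. Recovered reads on genes ranged from 33027230 to 61300021 per library.

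Pla2g4a itself had 697, 686 and 770.4 normalized counts in nonconfined WT libraries and 548, 542 and 533 in nonconfined KO libraries. After confinement it had 1369, 1430 and 1321 in WT and 923, 871 and 919.5 in KO libraries. KO against WT was -0.41 (adjusted p = 0.00019) in nonconfined and -0.60 (adjusted p = 3.81e-08) in confined cells, without overlap, but the transcript was not lost, and the part of the gene that is deleted was not analysed here. In the libraries labelled LPS WT it had 1005, 969 and 967, and in those labelled LPS KO 1065, 1032 and 1028, which is not lower. Ddx3y, a Y-linked RNA helicase examined after its values were seen, had 3.05, 0 and 1.97 in nonconfined WT and 949, 981 and 874 in nonconfined KO libraries, and was likewise near 0 in confined WT and high in confined KO libraries. In the libraries labelled LPS WT it had 1271, 0 and 662, and in those labelled LPS KO 2.12, 1476 and 783. The genotype labels of the LPS libraries therefore go against these genes, and the LPS libraries are pooled below or called by their label. Acot1 also differed, with 3.81, 0 and 0.98 in nonconfined WT and 478, 377 and 400 in nonconfined KO libraries. It had 6.76, 5.15 and 4.74 in confined WT and 588, 626 and 589 in confined KO libraries. The reason was not tested. In nonconfined and confined cells, genotype, the sex of the donors and any other difference between donors cannot be told apart.

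Immature DCs take up antigen and move through tissue, and mature DCs load peptides on MHC class II, raise costimulatory receptors, and extend actin-rich protrusions. Cultures of bone marrow with GM-CSF also yield macrophages and granulocytes. The study's protocol uses differences in adhesion to keep DCs and remove these other cells. Cells can sense compression through the nuclear envelope and the actin cortex.

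Confinement differences of the 85 genes ranged from -2.84 to -0.81 in WT cells, with a median of -1.31. In KO cells they ranged from -3.48 to -0.80, with a median of -1.52. The value of -3.48 is that of Grin2c and depends on a confined KO library without reads of this gene. Over the 17875 rows tested the medians were -0.01 in WT and 0.01 in KO cells. LPS differences ranged from -0.30 to 3.56 with a median of 0.46, beside 0.02 over the rows tested. With scaling to the same total per library this LPS median was -0.03 (-0.026) and that of the rows tested -0.46, so the LPS values are relative to the size factors used. The limma test called 84 of the 85 lower in WT cells, where 28.4% of rows tested were called lower, and 84 lower in KO cells, where 23.4% were. It called 52 higher with LPS, where 37.2% of rows were, and 11 lower, where 34.3% were. The choice of members used these contrasts, so nothing is read from these counts.

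In 78 of the 85 genes each of the 6 confined libraries lay below each of the 6 nonconfined libraries, as in 16.8% of rows tested. In 38 genes all 6 LPS libraries lay above the 6 nonconfined libraries (28.6% of rows tested), in 44 they overlapped, and in 3 (Tmem229b, Isoc1 and Cnp) they lay below (24.2% of rows tested). The rule used these contrasts too, so nothing is read from these counts. For these 3, and for the 11 called lower, being not lowered by LPS holds only within the margin of 0.3 that the rule allows. The LPS difference exceeded 1 in 25 genes, and in 2902 of the 17875 rows tested. It was above 0 in 64 genes and below in 21, beside 9132 and 8743 of the rows tested. The LPS threshold, and the level filter for the genes listed next, favoured high LPS values, so nothing is read from these counts. In all, 15 genes reached the mean of 50 only in an LPS group: B3galnt1, Bmp1, Chst7, Extl1, F2rl1, Fgfr3, Gimap6, Gm10432, Gm8773, Grin2c, Hdac11, Khdc1a, Nrg2, Olfr433 and Synpo2. All 85 passed the filter on low values, 10 normalized counts or more in 3 or more libraries.

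**Figure D1:**
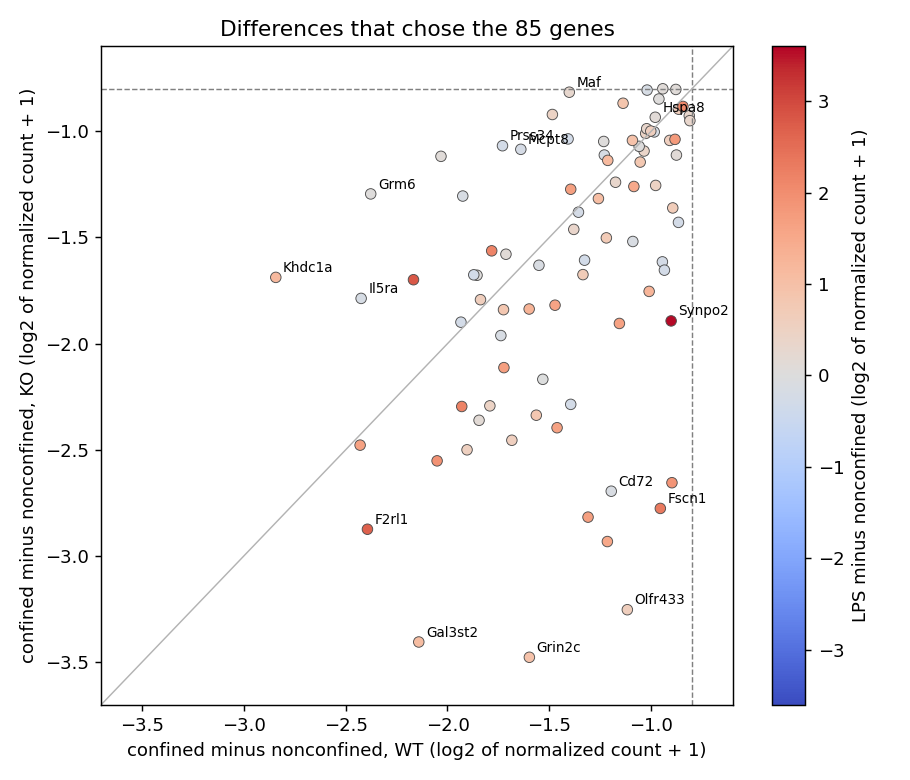
Confined minus nonconfined difference of the 85 genes in WT (horizontal axis) and KO cells (vertical axis), both as log2(normalized count + 1), with the LPS difference as colour, the threshold of -0.8 dashed and equality as a grey line. Fscn1, Cd72, Olfr433 and Grin2c lie well below the line of equality, and Grm6, Khdc1a, Prss34 and Mcpt8 lie above it.

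Just inside the WT threshold was Arc at -0.81, and just outside was Pilra, an inhibitory receptor of myeloid cells, at -0.80 (-0.7992). Adam23 at -0.80 (-0.8001) was just inside the KO threshold, and Cited2, a transcriptional coregulator, at -0.80 (-0.796) was just outside. At the LPS threshold Slc22a3 at -0.30 (-0.2977) was inside, and Stxbp6, a syntaxin-binding protein, at -0.31 was outside. Scaling to the same total per library shifted the median confinement difference of all rows tested in WT to -0.23. With that scaling 81 rows met the rule, of which 50 were among the 85, and with TMM scaling 86 rows met it, of which 76 were. Leaving out 1 library at a time gave between 81 and 91 rows, and 57 genes met the rule each time.

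Each genotype comparison uses a contrast that the rule did not use, though in the same libraries. The change of a genotype difference from nonconfined to confined cells equals the KO minus the WT confinement difference. The rule used both of these, so nothing is read from that change. In nonconfined cells limma called 10 of the 85 genes higher in KO (4.78% of rows tested) and 3 lower (4.11% of rows tested). In confined cells it called 14 higher (18.8% of rows tested) and 22 lower (20.6% of rows tested). The nonconfined count of 10 was 4 without KO replicate 1 or 3 or WT replicate 3, 5 without WT replicate 1 and 6 without WT replicate 2. The count of 3 was 1 without KO replicate 3 or WT replicate 3. Shares of all rows tested without these libraries are not given, so nothing is read from these shifts. Scaling to the same total per library turned the confined split to 21 higher and 18 lower. That scaling also moved the median of all rows tested, from 0.04 to 0.19, so nothing is read from the turned split. The median KO minus WT difference was 0.10 in nonconfined and -0.14 in confined cells, beside 0.00 (-0.002) and 0.04 over the rows tested. With the same total per library the confined median was 0.01 (0.009), beside 0.19 over the rows tested. In the libraries labelled LPS, limma called 0 of the 85 genes higher and 0 lower, where 0% of rows tested were called in each direction. At an unadjusted p under 0.05 it gave 3 of the 85 there, and edgeR and DESeq2 called 0 after adjustment and 4 each at an unadjusted p under 0.05. Of the 17875 rows tested, the unadjusted counts were 890 (4.98%) with limma, 812 (4.54%) with edgeR and 831 (4.65%) with DESeq2. The genotype labels of these libraries go against Pla2g4a and Ddx3y. This comparison therefore cannot decide whether genotype matters with LPS, and nothing is read from its counts. The genes called higher in KO in nonconfined and in confined cells were Adam23, Camkk1, Maf, Mcpt8, Prss34 and Spns3. Serpina3g and Slco4a1 were called lower in both. Cd72, Fscn1 and Npr1 were called higher in nonconfined and lower in confined KO cells. In 47 genes neither comparison was called. The shares of all rows tested with these combined calls are not given, so nothing is read from these counts. KO libraries lay above WT libraries in nonconfined and below them in confined cells, without overlap, in 6 of the 85 genes and in 3.42% of rows tested. This pattern needs a lower confinement difference in KO than in WT cells, and the rule used both, so nothing is read from this count.

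A set of 10 genes was grouped, after membership was known, by roles in the surface, antigen presentation and maturation of DCs or other immune cells. Their median confinement difference was -1.36 in WT and -2.03 in KO cells. Fscn1, which bundles actin filaments in the processes of mature DCs, had 16066, 15255 and 15005 normalized counts in nonconfined WT and 17172, 16363 and 17384 in nonconfined KO libraries. Confined WT libraries had 8264, 7633 and 8008 and confined KO libraries 2461, 2462 and 2508, while the LPS libraries had 79322, 80124 and 81554 as lowest, median and highest. Confined KO libraries were the lowest and LPS libraries the highest, and no pair of these groups overlapped. The confinement difference was -0.95 in WT and -2.78 in KO cells, and the LPS difference was 2.31. KO against WT was -1.68 (SE 0.04, adjusted p = 6.09e-19) in confined and 0.14 (SE 0.04, adjusted p = 0.033) in nonconfined cells. The nonconfined call was lost with no filter (0.14), with the compared conditions alone (0.14), with TMM scaling (0.13), with the same total per library (0.10) and without any of nonconfined KO replicate 1 (0.13) or 3 (0.12) or WT replicate 2 (0.13) or 3 (0.12).

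Ciita, the transcriptional coactivator that controls MHC class II genes, had 8962, 8434 and 8747 in nonconfined WT and 8091, 10235 and 9079 in nonconfined KO libraries. It had 4304, 4206 and 4319 in confined WT and 4860, 4279 and 4421 in confined KO libraries, and 11455, 11994 and 13909 as lowest, median and highest with LPS. Confined libraries lay below and LPS libraries above the nonconfined ones, with WT and KO overlapping in both states. The genotypes differed by 0.06 (SE 0.07, adjusted p = 0.688) in nonconfined and 0.08 (SE 0.07, adjusted p = 0.437) in confined cells, where the same total per library gave a call (0.23). The nonconfined value of Ciita was 0.15 without KO replicate 1, -0.02 without KO replicate 2 and 0.04 without WT replicate 2, and the confined value was 0.03 (0.025) without KO replicate 1. The MHC class II genes of the list of DC markers are not among the 85. The confinement difference of H2-Aa was -0.09 in WT and -0.51 in KO cells, that of H2-Ab1 was -0.23 and -0.58, and that of H2-Eb1 was 0.05 and -0.46. Of the 18 DC markers, 8 were called lower and 8 higher by confinement in WT, and 13 lower and 3 higher in KO cells. Fscn1, Ciita and Flt3 were the markers among the 85. Of all rows tested, 28.4% were called lower and 28.2% higher by confinement in WT, and 23.4% lower and 22.8% higher in KO cells.

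Cd72, an inhibitory lectin-like coreceptor best known from B cells, had 1159, 1143 and 1125 in nonconfined WT and 2061, 1845 and 2006 in nonconfined KO libraries. After confinement it had 493, 468 and 535 in WT and 284, 302 and 325 in KO libraries, beside 1088, 1402 and 1664 as lowest, median and highest with LPS. KO libraries were higher before and lower after confinement, without overlap in either state. The differences were 0.79 (SE 0.12, adjusted p = 0.000347) in nonconfined and -0.71 (SE 0.12, adjusted p = 7e-05) in confined cells.

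Tmem176a and Tmem176b, paired membrane proteins of immature DCs, were added after their values were seen. Tmem176b had 1321, 1282 and 1257 in nonconfined WT, 1254, 1129 and 1291 in nonconfined KO, 348, 340.4 and 385 in confined WT and 218, 229 and 267 in confined KO libraries. Tmem176a had 872, 877 and 768 in nonconfined WT, 815, 733 and 748 in nonconfined KO, 258, 251 and 271 in confined WT and 155, 128 and 134 in confined KO libraries. With LPS, Tmem176b had 1298, 1423 and 1467 and Tmem176a 1028, 1194 and 1309 as lowest, median and highest. For both genes, nonconfined genotypes overlapped and confined KO libraries lay below confined WT libraries. In confined cells KO against WT was -0.59 (SE 0.08, adjusted p = 2.54e-06) for Tmem176b and -0.90 (SE 0.10, adjusted p = 9.72e-08) for Tmem176a.

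Flt3, the receptor for a growth factor of DC progenitors, had 128, 113 and 116 in nonconfined WT, 132, 166 and 124 in nonconfined KO, 31.9, 53.2 and 39.1 in confined WT and 26.98, 34.1 and 30.1 in confined KO libraries. LPS libraries had 89.1, 135 and 154 as lowest, median and highest. Confined libraries were low, LPS libraries overlapped the nonconfined ones, and WT and KO overlapped in each state. In confined cells KO against WT was -0.41 (SE 0.21, adjusted p = 0.133) for Flt3, -0.22 without confined WT replicate 2 and -0.58 with a call without WT replicate 1. Serpina3g, an intracellular protease inhibitor, had 1412, 1361 and 1523 in nonconfined WT and 1175, 1179 and 1132 in nonconfined KO libraries. In confined libraries it had 705, 617 and 583 in WT and 528, 456 and 492 in KO, and with LPS 1457, 1640 and 1694 as lowest, median and highest. KO libraries were lower in both states without overlap, at -0.30 (SE 0.07, adjusted p = 0.0152) in nonconfined and -0.37 (SE 0.07, adjusted p = 0.000479) in confined cells. Without nonconfined KO replicate 3 (-0.28) or WT replicate 3 (-0.26, from -0.255) the nonconfined call was lost. Tnfrsf4, the costimulatory receptor also called OX40, Dpp4, a surface peptidase that cleaves chemokines, and Gimap6, a small GTPase of immune cells, complete this set, with confinement differences between -1.93 and -0.88 in WT cells.

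A set of 4 genes is known from basophils, mast cells and eosinophils. Prss34, a basophil serine protease, had 2922, 2736 and 2983 in nonconfined WT and 4262, 4010 and 4245 in nonconfined KO libraries. Confined WT libraries had 832, 839.5 and 933, confined KO libraries 2034, 1917 and 2016, and LPS libraries 2455, 2940 and 3303 as lowest, median and highest. Confined WT libraries were lowest, and KO libraries were higher than WT libraries in both states without overlap. The genotype difference was 0.54 (SE 0.08, adjusted p = 0.000256) in nonconfined and 1.20 (SE 0.08, adjusted p = 7.76e-11) in confined cells. Mcpt8, another basophil protease, had 1687, 1809 and 1735 in nonconfined WT, 3155, 2867 and 2754 in nonconfined KO, 599, 521 and 558 in confined WT and 1367, 1351 and 1412 in confined KO libraries. With LPS it had 1661, 1970 and 2216 as lowest, median and highest. As for Prss34, confined WT libraries were lowest, and KO libraries lay above WT libraries in both states without overlap. Its genotype difference was 0.74 (SE 0.09, adjusted p = 1.78e-05) in nonconfined and 1.30 (SE 0.09, adjusted p = 8.08e-11) in confined cells.

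Il5ra, the interleukin-5 receptor subunit of eosinophils and basophils, had 87.6, 123 and 82.5 in nonconfined WT, 171, 189 and 159 in nonconfined KO, 28.99, 12.01 and 14.2 in confined WT and 58.3, 51.2 and 40.1 in confined KO libraries. LPS libraries had 90.5, 102 and 165 as lowest, median and highest. KO libraries were higher in both states without overlap, at 1.47 (SE 0.29, adjusted p = 0.000299) in confined cells and 0.84 (SE 0.29, adjusted p = 0.0768) in nonconfined cells, where edgeR (0.83), DESeq2 (0.82) and the compared conditions alone (0.84) gave a call. Cma1, the mast cell chymase, had 66.3, 48.6 and 51.1 in nonconfined WT, 102, 77.3 and 116 in nonconfined KO, 17.4, 17.1 and 13.03 in confined WT and 32.4, 10.7 and 40.1 in confined KO libraries. LPS libraries had 55.7, 63.1 and 82.4 as lowest, median and highest. The nonconfined genotypes did not overlap and the confined ones did, and neither comparison was called. The confined difference was 0.59 (SE 0.34, adjusted p = 0.188), and was 0.39 without confined KO replicate 1, 0.24 without KO replicate 3, and 1.15 (1.146) with a call without KO replicate 2. The nonconfined difference was 0.81 (SE 0.34, adjusted p = 0.155), and DESeq2 called it (0.83).

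Markers of these cell types were listed by cell type, and the lists hold the 4 genes themselves. For the counts below, the shares over all rows tested were 28.4% lower and 28.2% higher in WT, and 23.4% and 22.8% in KO cells. No list was tested against these shares. Of 10 mast cell and basophil markers tested, 7 were called lower and 2 higher by confinement in WT cells, and 8 lower and 2 higher in KO cells. Their summed normalized counts were 10621, 10668 and 10766 in nonconfined WT and 15854, 15383 and 15468 in nonconfined KO libraries. After confinement the sums were 17022, 16371 and 16913 in WT and 9125, 8814 and 9123 in KO libraries. The sum was thus higher in confined than in nonconfined WT libraries and lower in confined than in nonconfined KO libraries. With LPS the sums were 19559, 21692 and 20347 in libraries labelled WT and 22051, 19695 and 20856 in those labelled KO.

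Hdc, which makes histamine, had the highest mean of this list over the 18 libraries, with 730.0, 732 and 744 in nonconfined WT, 981, 1071 and 1068 in nonconfined KO, 12596, 12068 and 12444 in confined WT and 1497, 1437 and 1440 in confined KO libraries. Confined WT libraries were the highest of these, and Hdc led the list there and with LPS. In nonconfined WT libraries Cpa3, a mast cell carboxypeptidase, was higher, with 3187, 3380 and 3337, as were Prss34 and Mcpt8. In confined KO libraries Cpa3 had 1920, 1839 and 1911, also above Hdc. The sums without Hdc, taken after its values were seen, were 9891, 9936 and 10022 in nonconfined WT and 14873, 14311 and 14400 in nonconfined KO libraries. After confinement they were 4427, 4303 and 4469 in WT and 7629, 7377 and 7683 in KO libraries, lower than before in both genotypes. The LPS sums without Hdc were 10016, 9174 and 9884 in libraries labelled WT and 9215, 10445 and 10014 in those labelled KO. The mast cell proteases Mcpt4 and Tpsab1 were under 3 normalized counts in all 18 libraries.

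Of 7 eosinophil markers tested, 5 were called lower and 1 higher by confinement in WT, and 6 lower and 0 higher in KO cells. Their summed counts were 28849, 28577 and 28474 in nonconfined WT and 68989, 64654 and 66471 in nonconfined KO libraries. In confined WT libraries the sums were 7736, 7228 and 7153, and in confined KO libraries 16711, 16165 and 17149. The most abundant was Prg2, a granule protein, with 17162, 17446 and 17221 in nonconfined WT and 4157, 3865 and 3858 in confined WT libraries. With LPS the sums were 40517, 23822 and 32090 in libraries labelled WT and 23624, 40077 and 32717 in those labelled KO. Most of the neutrophil markers were also called lower by confinement in WT cells, 13 of 15 with 1 higher, and in KO cells 7 were lower and 1 higher. None of them is among the 85. Their summed counts were 259975, 265085 and 263699 in nonconfined WT and 403151, 361553 and 388827 in nonconfined KO libraries. In confined libraries the sums were 188880, 179515 and 177720 in WT and 359106, 370438 and 355076 in KO. Confined WT libraries were below nonconfined WT ones, while the KO groups overlapped. With LPS the neutrophil sums were 403299, 366750 and 380625 in libraries labelled WT and 357630, 410785 and 384981 in those labelled KO. S100a9, a calcium-binding protein of neutrophils, had the highest mean of the list. It had 111945, 115696 and 113124 in nonconfined WT and 76544, 71643 and 70713 in confined WT libraries. In KO libraries S100a9 overlapped, with 161294, 142045 and 154880 in nonconfined and 157070, 169481 and 154389 in confined cells. No neutrophil marker was under 3 normalized counts throughout. Of 13 macrophage markers tested, 5 were called lower and 3 higher by confinement in WT, and 6 lower and 3 higher in KO cells. Of 6 lymphoid markers tested, 4 were called lower and 0 higher in WT, and 3 lower and 0 higher in KO cells. Neither list holds any of the 85. Over all rows tested, confinement called 28.4% lower and 28.2% higher in WT, and 23.4% lower and 22.8% higher in KO cells.

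Fewer cells of a type and less RNA per cell cannot be told apart in bulk libraries, and the part of these cells in the values of the 4 genes was not tested.

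Another set regulates actin, microtubules or cell shape. Arpin, which inhibits the actin-nucleating Arp2/3 complex and was added after its values were seen, had 136, 143 and 140.5 in nonconfined WT, 144, 126 and 119 in nonconfined KO, 70.5, 87.5 and 48.6 in confined WT and 55.03, 70.4 and 50.1 in confined KO libraries. LPS libraries had 184, 248 and 302 as lowest, median and highest. Confined libraries were low and LPS libraries high, with WT and KO overlapping in both states. Between genotypes Arpin differed by -0.11 (SE 0.21, adjusted p = 0.818) in nonconfined and -0.21 (SE 0.21, adjusted p = 0.475) in confined cells. The confined value was -0.43 without confined WT replicate 3, -0.02 (-0.015) without WT replicate 2, -0.34 without confined KO replicate 2 and -0.10 without KO replicate 3. The nonconfined value was -0.19 without nonconfined KO replicate 1 and -0.06 without KO replicate 3. Arhgap22, which turns off Rac, had 600.4, 609.7 and 579 in nonconfined WT, 773, 692 and 750.2 in nonconfined KO, 175, 188 and 229.8 in confined WT and 213, 183 and 223 in confined KO libraries. With LPS it had 1406, 1596 and 1977 as lowest, median and highest. Confined libraries were lowest and LPS libraries highest without overlap, at -1.60 in WT and -1.84 in KO cells for confinement and 1.28 for LPS. Its nonconfined genotype difference was 0.31 (SE 0.12, adjusted p = 0.108), and was called with the compared conditions alone (0.31).

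Synpo2, an actin-binding protein of stress fibres, had the largest LPS difference of the 85 genes, 3.56. It met the mean of 50 only among the LPS groups, so its high LPS values helped to choose it. It had 47.2, 40.1 and 36.4 in nonconfined WT, 25.9, 37.2 and 34.9 in nonconfined KO, 24.2, 13.7 and 29.6 in confined WT and 8.63, 6.40 and 9.11 in confined KO libraries, and 402, 447 and 464 as lowest, median and highest with LPS. LPS libraries stood far above the rest and confined KO libraries were lowest, while confined WT libraries overlapped nonconfined KO ones. The genotypes differed by -1.32 (SE 0.24, adjusted p = 0.000145) in confined and -0.34 (SE 0.24, adjusted p = 0.46) in nonconfined cells, where the value was -0.18 without KO replicate 1. Ripor2, which acts on cell polarity and was added after its values were seen, had 272, 206 and 217 in confined WT and 432, 277 and 356 in confined KO libraries, against 515, 534 and 577 in nonconfined WT and 634, 765 and 781 in nonconfined KO libraries. In both states Ripor2 was higher in KO without overlap, at 0.60 (SE 0.14, adjusted p = 0.0017) in confined and 0.42 (SE 0.14, adjusted p = 0.072) in nonconfined cells, where edgeR (0.43), DESeq2 (0.42) and the compared conditions alone (0.42) gave a call. Arc, known from synapses, Sh3pxd2a, a scaffold of podosomes, Aif1l, an actin-binding protein, and Eml5, a microtubule-associated protein, are also in this set. The confinement differences of the genes named here lay between -1.71 and -0.81 in WT and between -1.89 and -0.95 in KO cells.

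A set of 16 genes encodes receptors, channels or second-messenger proteins. Itpr1, the calcium channel of the endoplasmic reticulum opened by inositol trisphosphate, had 4096, 4112 and 4192 in nonconfined WT, 3332, 3806 and 3543 in nonconfined KO, 1533, 1754 and 1661 in confined WT and 1084, 1237 and 1183 in confined KO libraries. LPS libraries had 2319, 3130 and 3866 as lowest, median and highest. KO libraries were lower in both states without overlap, at -0.50 (SE 0.11, adjusted p = 0.00142) in confined and -0.22 (SE 0.11, adjusted p = 0.275) in nonconfined cells, where the compared conditions alone gave a call (-0.22). Cacnb3, a subunit of voltage-gated calcium channels added after its values were seen, had 2242, 2105 and 2114 in nonconfined WT, 2378, 2418 and 2503 in nonconfined KO, 1096, 1013 and 1098 in confined WT and 787, 681 and 698 in confined KO libraries. With LPS it had 5222, 5308 and 5843 as lowest, median and highest. LPS libraries were highest, and KO libraries were above WT before and below WT after confinement without overlap. Cacnb3 differed between genotypes by -0.57 (SE 0.06, adjusted p = 5.29e-08) in confined and 0.18 (SE 0.06, adjusted p = 0.0604) in nonconfined cells, where edgeR (0.18), DESeq2 (0.17) and a minimum of 100 normalized counts (0.18) gave a call.

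Rgs3, which shortens G protein signals, had 3010, 2736 and 2796 in nonconfined WT, 3202, 3236 and 3107 in nonconfined KO, 1729, 1525 and 1607 in confined WT and 1833, 1666 and 1531 in confined KO libraries. Confined libraries were low, LPS libraries ran from 3248 to 4245, and neither genotype comparison was called. The confined value of 0.05 was 0.20 with a call with the same total per library, and ran from -0.02 to 0.11 without 1 confined library. Camkk1, a kinase activated by calcium and calmodulin, had 81.5, 65.7 and 57.00 in nonconfined WT, 137, 97.7 and 173 in nonconfined KO, 40.6, 28.3 and 26.1 in confined WT and 56.1, 68.2 and 67.4 in confined KO libraries. LPS libraries had 157, 178 and 221 as lowest, median and highest. Camkk1 was higher in KO libraries in both states without overlap, at 0.96 (SE 0.22, adjusted p = 0.00815) in nonconfined and 1.01 (SE 0.22, adjusted p = 0.000791) in confined cells. The nonconfined call was lost with the compared conditions alone (0.96) and without KO replicate 3 (0.77) or WT replicate 3 (0.85). Rasgrp1, a Ras exchange factor that binds diacylglycerol, had 177, 163 and 199.5 in nonconfined WT, 127, 181 and 183 in nonconfined KO, 60.9, 57.5 and 74.6 in confined WT and 50.7, 53.3 and 33.7 in confined KO libraries. LPS libraries had 429.6, 526 and 639.6 as lowest, median and highest, all above the others. Confined KO libraries lay below confined WT ones, at -0.50 (SE 0.19, adjusted p = 0.0458), and the call was lost without confined KO replicate 3 (-0.29) or WT replicate 1 (-0.53) or 3 (-0.39). It was also lost with edgeR (-0.52), DESeq2 (-0.50), a pseudocount of 5 (-0.46), no filter (-0.50), the compared conditions alone (-0.50), the same total per library (-0.34) and the replicate block (-0.50).

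Grm6, a metabotropic glutamate receptor, had 60.2, 47.8 and 45.2 in nonconfined WT, 86.2, 85.6 and 63.1 in nonconfined KO, 11.6, 10.3 and 5.92 in confined WT and 26.98, 44.8 and 24.6 in confined KO libraries. With LPS it had 43.9, 63.2 and 92.5 as lowest, median and highest. Confined WT libraries were lowest and KO libraries were higher in both states without overlap. Grm6 differed between genotypes by 1.69 (SE 0.28, adjusted p = 4.74e-05) in confined and 0.60 (SE 0.28, adjusted p = 0.203) in nonconfined cells, and the confined value was the largest positive one among the 85. Olfr433, an odorant receptor, had 27.4, 39.2 and 50.1 in nonconfined WT, 48.6, 51.2 and 40.8 in nonconfined KO, 15.5, 14.6 and 21.3 in confined WT and 3.24, 5.33 and 3.65 in confined KO libraries. LPS libraries had 35.00, 67.8 and 90.5 as lowest, median and highest. Confined KO libraries were lowest without overlap, at -1.84 (SE 0.34, adjusted p = 0.00016) against confined WT, while nonconfined genotypes overlapped. Grin2c, a subunit of NMDA receptors, had 36.6, 28.1 and 38.3 in nonconfined WT, 40.7, 44.7 and 43.7 in nonconfined KO, 9.66, 8.57 and 14.2 in confined WT and 0, 8.53 and 5.47 in confined KO libraries. LPS libraries had 58.8, 76.1 and 97.5 as lowest, median and highest. KO libraries were above WT before and below WT after confinement without overlap. In confined cells KO against WT was -1.55 (SE 0.53, adjusted p = 0.0237), which rests on few reads and was -0.56 and not called without confined KO replicate 1, and -1.36 (from -1.355) and not called without confined WT replicate 3. That call was also lost with edgeR (-1.18), DESeq2 (-1.18), no filter (-1.55) and the compared conditions alone (-1.55).

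F2rl1, a protease-activated receptor, had 10.7, 13.6 and 13.8 in nonconfined WT, 10.97, 14.9 and 17.5 in nonconfined KO, 1.93, 1.72 and 1.19 in confined WT and 2.16, 0 and 1.82 in confined KO libraries. LPS libraries had 54.3, 95.3 and 126 as lowest, median and highest. Confined libraries were near 0 and LPS libraries alone were high. F2rl1 met the mean of 50 only among the LPS groups, so its high LPS values helped to choose it. Lpar3, a receptor for lysophosphatidic acid, had 73.9, 79.3 and 48.1 in nonconfined WT, 65.8, 85.6 and 88.3 in nonconfined KO, 11.6, 16.3 and 24.9 in confined WT and 12.9, 14.9 and 11.8 in confined KO libraries, with LPS libraries overlapping the nonconfined ones. Spry1, an inhibitor of receptor tyrosine kinase signals, had 64.01, 46.05 and 70.8 in nonconfined WT and 26.1, 28.3 and 14.2 in confined WT libraries, and 132, 179 and 259.7 as lowest, median and highest with LPS. LPS libraries were high, and neither genotype comparison was called for these 3 genes. Npr1, a guanylyl cyclase that binds natriuretic peptides, was added after its values were seen. It had 707, 689.8 and 698 in nonconfined WT, 1005, 968 and 941 in nonconfined KO, 269.6, 249 and 277 in confined WT and 235, 187 and 178 in confined KO libraries. KO libraries were above WT before and below WT after confinement without overlap, at 0.48 (SE 0.14, adjusted p = 0.0339) and -0.42 (SE 0.14, adjusted p = 0.02), and the nonconfined call was lost without any 1 of the 6 nonconfined libraries (0.45 to 0.50), with no filter (0.48) and with the same total per library (0.44). The confined call was lost without KO replicate 2 (-0.37) or 3 (-0.34) or WT replicate 1 (-0.40) or 3 (-0.38), and with the same total per library (-0.26). Adcy6, an adenylyl cyclase, Hcn3, a cation channel, Oprd1, the delta opioid receptor, and Fgfr3, a fibroblast growth factor receptor, complete this set. Its confinement differences lay between -2.39 and -0.81 in WT and between -3.48 and -0.93 in KO cells. The value of -3.48 is that of Grin2c, which had a confined KO library without reads of this gene.

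**Figure D2:**
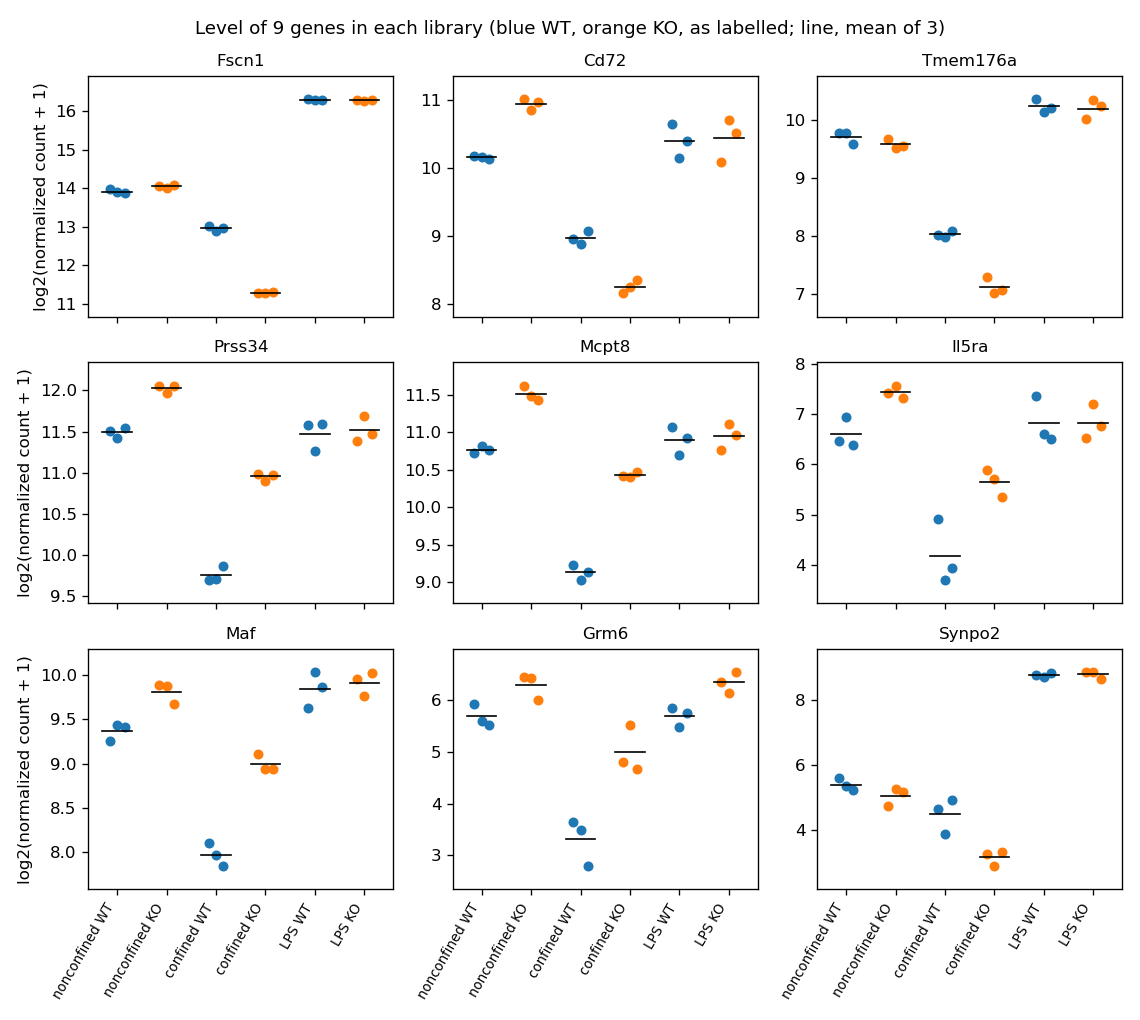
Level of Fscn1, Cd72, Tmem176a, Prss34, Mcpt8, Il5ra, Maf, Grm6 and Synpo2 as log2(normalized count + 1) in each of the 18 libraries by labelled condition, with WT in blue, KO in orange and the mean of 3 libraries as a line. In Fscn1, Cd72, Tmem176a and Synpo2 confined KO libraries are lowest, and in the other 5 genes confined WT libraries are lowest.

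A set of 9 genes encodes adhesion or secreted matrix proteins. Adam23, an adhesion protein of the ADAM family without protease activity, had 5126, 5236 and 5179 in nonconfined WT, 6585, 6977 and 6828 in nonconfined KO, 2630, 2808 and 2649 in confined WT and 3955, 3922 and 3830 in confined KO libraries. LPS libraries had 5046, 6418 and 7636 as lowest, median and highest. Adam23 was higher in KO libraries in both states without overlap, at 0.39 (SE 0.11, adjusted p = 0.0265) in nonconfined and 0.53 (SE 0.11, adjusted p = 0.000425) in confined cells, and the nonconfined call was lost without any 1 of the 6 nonconfined libraries (0.37 to 0.41) and with no filter (0.39). Igsf9, an immunoglobulin-like adhesion protein, had 925, 804 and 791 in nonconfined WT, 715, 734 and 710.4 in nonconfined KO, 204, 213 and 243 in confined WT and 170.5, 122 and 149.5 in confined KO libraries. LPS libraries had 3211, 3472 and 3851 as lowest, median and highest. Confined KO libraries were lowest and LPS libraries highest without overlap, with KO against WT at -0.58 (SE 0.10, adjusted p = 0.000122) in confined cells.

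Dscaml1, a cell adhesion molecule, had 126, 137 and 144 in nonconfined WT, 130.1, 139.6 and 159 in nonconfined KO, 48.3, 18.9 and 35.5 in confined WT and 20.5, 25.6 and 24.6 in confined KO libraries. LPS libraries had 486, 509 and 588 as lowest, median and highest. Confined libraries were low, LPS libraries high, and the genotypes overlapped. The confined genotype difference of Dscaml1 was -0.43 (SE 0.22, adjusted p = 0.133), which was -0.14 without confined WT replicate 1 and -0.80 (-0.795) with a call without WT replicate 2. Nrg2, a neuregulin growth factor, had 32.00, 30.7 and 27.5 in nonconfined WT, 35.3, 32.6 and 28.1 in nonconfined KO, 1.93, 12.9 and 7.11 in confined WT and 10.8, 9.60 and 7.29 in confined KO libraries. With LPS it had 211, 223 and 242 as lowest, median and highest, an LPS difference of 2.81. Nrg2 met the mean of 50 only among the LPS groups, so its high LPS values helped to choose it. Its confined genotype difference was 0.55 (SE 0.36, adjusted p = 0.257), which became -0.07 without confined WT replicate 1, and 1.05 with a call without WT replicate 2. Scube1, a secreted glycoprotein added after its values were seen, had 107, 81.01 and 97.3 in nonconfined WT, 164, 156 and 162 in nonconfined KO, 27.1, 25.7 and 20.1 in confined WT and 67.98, 75.7 and 51.9 in confined KO libraries. KO libraries were higher in both states without overlap, at 1.38 (SE 0.26, adjusted p = 0.000233) in confined and 0.76 (SE 0.26, adjusted p = 0.079) in nonconfined cells, where DESeq2 (0.76) and the compared conditions alone (0.76) gave a call. Clstn1, Vsig10, Sned1 and Bmp1, a procollagen protease, complete this set, with confinement differences of the 9 between -2.17 and -0.91 in WT and between -2.82 and -0.80 in KO cells.

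Another 9 genes act in transcription, chromatin or RNA. Maf, a transcription factor of macrophages and lymphocytes, had 608, 692 and 680.0 in nonconfined WT, 946, 941 and 813 in nonconfined KO, 272, 249 and 227 in confined WT and 551, 490.5 and 489 in confined KO libraries. LPS libraries had 792, 964 and 1049 as lowest, median and highest. Maf was higher in KO libraries in both states without overlap, at 1.03 (SE 0.10, adjusted p = 4.34e-08) in confined and 0.45 (SE 0.10, adjusted p = 0.00937) in nonconfined cells. The nonconfined call was lost without KO replicate 1 (0.41) or WT replicate 1 (0.39). Maf was the 1 gene of the 85 among 54 myeloid transcription factors tested, of which 26 were called higher and 19 lower by confinement in WT cells and as many in KO cells. Over all rows tested the shares called higher and lower were 28.2% and 28.4% in WT, and 22.8% and 23.4% in KO cells.

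Hdac11, a histone deacetylase, had 20.6, 28.1 and 17.7 in nonconfined WT, 29.8, 20.5 and 38.8 in nonconfined KO, 7.73, 5.14 and 16.6 in confined WT and 12.9, 12.8 and 11.8 in confined KO libraries. Confined libraries were low and neither genotype comparison was called. It was the 1 gene of the 85 among 78 chromatin regulators tested, of which 23 were called higher and 25 lower by confinement in WT and 28 higher and 17 lower in KO cells. Zfp467, a zinc finger protein, had 401, 383 and 441 in nonconfined WT, 364, 384 and 367 in nonconfined KO, 208, 172 and 208 in confined WT and 172, 152 and 209.6 in confined KO libraries. LPS libraries overlapped the nonconfined ones, and the LPS difference was 0.00 (0.004). Of 410 zinc finger genes tested, 114 were called lower and 109 higher by confinement in WT and 52 lower and 90 higher in KO cells. Of all rows tested, 28.4% were called lower and 28.2% higher in WT, and 23.4% and 22.8% in KO cells. Khdc1a, a KH domain protein, had 32.00, 28.99 and 36.4 in nonconfined WT, 32.9, 31.6 and 33.00 in nonconfined KO, 5.80, 13.7 and 0 in confined WT and 17.3, 8.53 and 5.47 in confined KO libraries. Its WT confinement difference of -2.84 was the most negative among the 85 and includes a library at 0, on which this value and its rank depend. Between confined genotypes Khdc1a differed by 1.16 (SE 0.62, adjusted p = 0.153), by 0.06 without confined WT replicate 3, by 0.76 without KO replicate 1, and by 2.00 (1.996) with a call without WT replicate 2. Pdcd4, which represses translation, Sinhcaf, of the Sin3 complex, Tlx2, a homeobox factor, Bahcc1 and Krba1 complete this set. Its confinement differences lay between -2.84 and -0.86 (from -0.865) in WT and between -1.69 and -0.82 in KO cells.

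Another 18 genes are enzymes or transporters. Slco4a1, an organic anion transporter, had 1894, 1716 and 1690 in nonconfined WT, 1238, 1336 and 1204 in nonconfined KO, 904, 875 and 862 in confined WT and 658, 539.6 and 701 in confined KO libraries. LPS libraries had 1963, 2203 and 2475 as lowest, median and highest. KO libraries were lower in both states without overlap, at -0.49 (SE 0.09, adjusted p = 0.00201) in nonconfined and -0.48 (SE 0.09, adjusted p = 0.000225) in confined cells. Slc27a3, an acyl-CoA synthetase of the fatty acid transport family, had 286, 327 and 245 in nonconfined WT, 408, 395 and 421 in nonconfined KO, 160.4, 135 and 147 in confined WT and 114, 134 and 151 in confined KO libraries. Nonconfined KO libraries were highest without overlap, at 0.52 (SE 0.14, adjusted p = 0.0211), and confined genotypes overlapped. That call was lost without nonconfined KO replicate 1 (0.52) or 3 (0.50) or WT replicate 1 (0.53) or 3 (0.42). Slc22a3, a transporter of organic cations, had 51.8, 46.05 and 55.03 in nonconfined WT, 97.2, 79.1 and 95.1 in nonconfined KO, 19.3, 15.4 and 21.3 in confined WT and 53.95, 41.6 and 36.5 in confined KO libraries. Slc22a3 was higher in KO libraries in both states without overlap, at 1.19 (SE 0.26, adjusted p = 0.000827) in confined and 0.81 (SE 0.26, adjusted p = 0.0518) in nonconfined cells. The nonconfined difference was called without KO replicate 2 (0.91), with edgeR (0.84), DESeq2 (0.83), a pseudocount of 5 (0.77), the compared conditions alone (0.81) and the replicate block (0.81). Over all rows tested, confinement called 28.4% lower and 28.2% higher in WT, and 23.4% and 22.8% in KO cells. Of 250 solute carriers tested, 86 were called lower and 85 higher by confinement in WT, and 69 lower and 74 higher in KO cells. Those among the 85 were Slco4a1, Slc27a3, Slc22a3 and Slc22a23, which had 57.1, 87.8 and 63.9 in nonconfined WT and 21.3, 24.01 and 33.2 in confined WT libraries.

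Gal3st2, a sulfotransferase that acts on galactose, had the most negative mean of the 2 confinement differences. This value and its rank depend on a confined KO library at 0. It had 51.8, 62.2 and 57.00 in nonconfined WT, 48.6, 92.2 and 54.4 in nonconfined KO, 9.66, 17.1 and 10.7 in confined WT and 0, 12.8 and 14.6 in confined KO libraries, and 105, 123 and 177 as lowest, median and highest with LPS. The genotypes overlapped in both states, and confined KO libraries include a 0. The confined genotype difference of Gal3st2 was -1.13 (SE 0.64, adjusted p = 0.173), and was not called. It was 0.16 without confined KO replicate 1, and -1.73 without KO replicate 2 and -1.82 without KO replicate 3, where it was called. Nudt17, a Nudix hydrolase added after its values were seen, had 801, 733 and 819.6 in nonconfined WT, 882, 660.0 and 791 in nonconfined KO, 349.8, 372 and 333 in confined WT and 187, 219.7 and 211 in confined KO libraries. LPS libraries had 2344, 2435 and 2545 as lowest, median and highest. LPS libraries were highest and confined KO libraries lowest without overlap, with KO against WT at -0.77 (SE 0.09, adjusted p = 3.42e-07) in confined cells. Ldhc, the lactate dehydrogenase of germ cells, had 20.6, 28.99 and 29.5 in nonconfined WT, 63.5, 24.2 and 74.7 in nonconfined KO, 4.83, 13.7 and 9.48 in confined WT and 16.2, 36.3 and 27.3 in confined KO libraries. Confined KO libraries were above confined WT ones, at 1.45 (SE 0.41, adjusted p = 0.00697), and the call was lost without confined WT replicate 1 (1.08). In nonconfined cells the difference of Ldhc was 0.88 (SE 0.41, adjusted p = 0.201), and was 0.58 without nonconfined KO replicate 3 and 1.37 with a call without KO replicate 2. Cnp, a cyclic nucleotide phosphodiesterase known from myelin and added after its values were seen, had 1468, 1476 and 1474 in nonconfined WT, 1536, 1599 and 1739 in nonconfined KO, 797, 748 and 884 in confined WT and 634, 575 and 598 in confined KO libraries. KO libraries were above WT before and below WT after confinement without overlap, at 0.14 (SE 0.07, adjusted p = 0.226) and -0.42 (SE 0.07, adjusted p = 3.09e-05), and the nonconfined value was 0.09 without KO replicate 3. Isoc1, Kynu, which degrades kynurenine, Pnkd, Ids, a lysosomal sulfatase, Spns3, Eno3, an enolase of muscle, Prelid2, Chst7, Extl1 and B3galnt1, the last 3 of glycan synthesis, complete this set. Its confinement differences lay between -2.14 and -0.87 in WT and between -3.40 (-3.405) and -0.85 in KO cells.

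Hspa8, the constitutive cytosolic chaperone of the Hsp70 family, had 41022, 40234 and 40664 in nonconfined WT, 35760, 36012 and 36517 in nonconfined KO, 20920, 20163 and 20725 in confined WT and 19548, 17893 and 19269 in confined KO libraries. LPS libraries had 38269, 41872 and 44846 as lowest, median and highest. KO libraries were lower in both states without overlap, at -0.17 (SE 0.05, adjusted p = 0.0436) in nonconfined and -0.12 (SE 0.05, adjusted p = 0.063) in confined cells. The nonconfined call was lost with TMM scaling (-0.18), no filter (-0.17) and the replicate block (-0.17) and without any 1 of the 6 nonconfined libraries (-0.18 to -0.16). The confined difference was called with edgeR (-0.15), DESeq2 (-0.14), a minimum of 100 normalized counts (-0.12) and the compared conditions alone (-0.12, from -0.125). Per kilobase of the canonical transcript its nonconfined mean of 16027 normalized counts was the highest among the 83 genes matched to the annotation, followed by Fscn1 with 6030, Prss34 with 2883 and Mcpt8 with 2793. Clu, a secreted chaperone, is the other member of this set.

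The last 8 genes are of other or little known function. Tmem229b, a membrane protein, had 4189, 4309 and 4233 in nonconfined WT, 4015, 3994 and 4105 in nonconfined KO, 1858, 1746 and 1823 in confined WT and 2005, 1780 and 1825 in confined KO libraries. LPS libraries had 3558, 3655 and 3850 as lowest, median and highest. Confined libraries were lowest, LPS libraries lay just below the nonconfined ones, and neither genotype comparison was called. The confined value of 0.05 was 0.20 with a call with the same total per library, and ran from -0.005 to 0.08 without 1 confined library. Of 939 clone-named loci tested, 177 were called lower and 189 higher by confinement in WT, and 138 lower and 120 higher in KO cells, and 4 were among the 85. Over all rows tested the shares were 28.4% lower and 28.2% higher in WT, and 23.4% and 22.8% in KO cells. Gm4956 had 83.8, 94.7 and 147 in nonconfined WT and 30.9, 19.7 and 10.7 in confined WT libraries. Its confined genotype difference of -0.37 (SE 0.30, adjusted p = 0.359) was -0.03 without confined WT replicate 1, -0.12 without KO replicate 1, -0.61 without KO replicate 2, and -0.75 with a call without WT replicate 3. Gm16685 had 36.7, 43.7 and 14.2 in confined WT and 18.3, 4.26 and 5.47 in confined KO libraries, with KO against WT at -1.76 (SE 0.41, adjusted p = 0.00152) and overlapping values. Gm8773, Gm10432, Bex6, Fam89a and Nxpe3 complete this set, whose LPS differences lay between -0.30 and 2.08.

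None of the 85 was among 32 cell division genes tested, of which 31 were called lower by confinement in WT, 29 in KO cells and 31 with LPS. None was among 46 DNA damage and repair genes, of which 34 were called lower and 1 higher in WT, and 26 lower and 0 higher in KO cells. The lists of GM-CSF and STAT5 targets, FOXO and MondoA targets, SRF, MRTF and YAP targets, cholesterol synthesis, circadian clock, TGF-beta, Notch and Wnt targets, mitochondrial and tRNA translation, and lipid and eicosanoid metabolism also held none. Rasgrp1 and Spry1 were the 2 of 51 phosphoinositide and MAPK signalling genes, of which 19 were called lower and 21 higher in WT, and 15 lower and 19 higher in KO cells. Flt3 was the 1 of 72 surface receptors of DCs, of which 27 were called lower and 30 higher in WT, and 30 lower and 26 higher in KO cells. Over all rows tested, confinement called 28.4% lower and 28.2% higher in WT and 23.4% and 22.8% in KO cells, and LPS called 34.3% lower.

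Some of the genes lie beside each other, in mm39 coordinates of the table. On chromosome 6, Tmem176b (chr6:48810745-48818310) and Tmem176a (chr6:48818417-48823982) are 106 bases apart on opposite strands. Krba1 (chr6:48372519-48397287) and Zfp467 (chr6:48404627-48422759) are 7339 bases apart, and Gimap6 (chr6:48678511-48685178) lies between these pairs. Between Zfp467 and Gimap6 lie 7 tested rows, with WT confinement differences from -3.18 (Sspo) to 0.58 (Zfp775). Of the tested neighbours between Gimap6 and Tmem176b, Gimap5 differed by -2.61 with confinement in WT and by -1.99 with LPS, and Gimap1 by -3.13 and -3.05, so both failed the LPS threshold. Adcy6 (chr15:98487873-98505516) and Cacnb3 (chr15:98530209-98542417) are 24692 bases apart with no tested row between. Slc27a3 (chr3:90292540-90297245) and Npr1 (chr3:90357899-90373645) flank Ints3, which differed by -0.46 in WT and -0.35 in KO cells. Cma1 (chr14:56178908-56182132) and Mcpt8 (chr14:56319616-56322730) are 137483 bases apart in the cluster of mast cell and basophil proteases. The 1 tested row between them, Gm5801, differed by 0.57 in WT and 0.26 in KO cells. Gm4956 and Khdc1a lie 51364 bases apart on chromosome 1.

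The 83 genes matched once to the GENCODE annotation of GRCm39 had a median span of 24948 bases, beside 24569 over 13409 matched rows tested. Their canonical transcripts had a median of 9 exons and 3278 bases, beside 8 exons and 3257 bases. Protein-coding genes made up 96.4% of them and 94.1% of the rows tested.

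RefSeq promoter entries on GRCm38.p6, a build older than that of the table, matched 62 of the 85 genes by symbol. That is 72.9%, under the 80% needed to describe the set, so no share of motifs among the 85 is given. Entries are 300 bases long, and 74.7% of plus strand entries of a single promoter per gene begin 250 bases before the first base of the gene. Those of Gal3st2, Lpar3 and Olfr433 begin 250 bases before it, and that of Grin2c 196 bases before it. The 4 promoters shown are those of the genes with the most negative mean confinement difference that have an entry, and show where the motif matches lie in them. In all, 16 motifs were searched on both strands, and capitals mark matches. Among all 32851 promoters of the same length, CACGTG was found in 7.15%, TGACGTCA in 1.79%, CCAAT in 37.4%, GGGCGG in 35.7%, TATAAA in 13.6%, CCGGAAG in 8.86%, GCGCATGC in 2.71% and AAGATGGCG in 1.40%. Among the same promoters, GGAATG was found in 14.7%, TGANTCA in 7.81%, GAAANNGAA in 8.56%, TTCNNNGAA in 8.30%, GAGGAAGT in 3.20%, TTATGTAA in 0.938%, GGGNNTCC in 19.0% and TGTTTAC in 3.65%. Gal3st2 lies at chr1:93861094-93861393 on the plus strand, Grin2c at chr11:115267194-115267493 on the minus strand, Lpar3 at chr3:146220711-146221010 on the plus strand and Olfr433 at chr1:174041683-174041982 on the plus strand.
Gal3st2: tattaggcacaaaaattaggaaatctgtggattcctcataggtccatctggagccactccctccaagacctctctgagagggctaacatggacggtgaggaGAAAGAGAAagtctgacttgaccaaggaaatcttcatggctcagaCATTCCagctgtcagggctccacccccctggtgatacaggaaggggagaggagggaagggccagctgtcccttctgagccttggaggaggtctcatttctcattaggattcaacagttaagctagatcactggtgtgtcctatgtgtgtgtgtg
Grin2c: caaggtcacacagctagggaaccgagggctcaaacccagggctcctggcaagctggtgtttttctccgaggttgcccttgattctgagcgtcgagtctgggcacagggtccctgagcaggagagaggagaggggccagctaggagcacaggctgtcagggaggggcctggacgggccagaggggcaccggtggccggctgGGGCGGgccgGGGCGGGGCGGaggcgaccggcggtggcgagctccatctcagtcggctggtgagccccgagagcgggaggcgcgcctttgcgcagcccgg
Lpar3: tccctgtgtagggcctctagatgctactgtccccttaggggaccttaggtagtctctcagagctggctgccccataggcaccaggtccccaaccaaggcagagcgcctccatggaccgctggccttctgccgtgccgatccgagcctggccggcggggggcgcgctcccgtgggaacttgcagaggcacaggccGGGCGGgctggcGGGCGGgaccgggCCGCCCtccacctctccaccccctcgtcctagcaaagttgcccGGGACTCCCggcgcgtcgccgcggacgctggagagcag
Olfr433: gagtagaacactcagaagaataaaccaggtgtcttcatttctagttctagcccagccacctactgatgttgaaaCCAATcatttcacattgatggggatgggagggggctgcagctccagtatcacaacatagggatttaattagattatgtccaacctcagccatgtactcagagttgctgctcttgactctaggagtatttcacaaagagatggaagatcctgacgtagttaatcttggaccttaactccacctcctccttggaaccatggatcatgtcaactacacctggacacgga
Grin2c and Lpar3 had 70.0% and 70.3% G and C with 22 and 25 CG pairs, whereas Gal3st2 and Olfr433 had 50.3% and 45.0% with 1 and 2. A match is a description of letters and was not tested as a binding site.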

How the data were processed

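The deposited table holds signal values that the authors made per gene, namely read counts divided by a size factor for each library, in 18 libraries of mouse bone marrow-derived DCs. The submitters' processing notes name STAR 2.7.5a, featureCounts 1.5.0, DESeq2, R 3.5.3 and the build mm39 (GRCm39). Whole reads were recovered in 100% of values, within 1e-06 reads. With 3 libraries per condition the spread between libraries sets the precision.

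The scale was log2(normalized count + 1), on which adding 1 shrinks the differences of genes with low values. A single limma 3.58.1 fit (R 4.3.3) held 6 condition means over 18 libraries, with a trend in the prior variance. Its estimate of spread includes the LPS libraries, whose genotype labels go against Pla2g4a and Ddx3y. Genes that vary among libraries sharing an LPS label, such as Ddx3y, thus get a wider SE in every comparison. The fit of the compared conditions alone leaves the LPS libraries out of the nonconfined and confined genotype comparisons. The 17875 rows tested had 10 normalized counts or more in 3 or more libraries. Adjustment for multiple testing followed Benjamini and Hochberg over these rows, and a call is an adjusted p under 0.05. Alternatives were edgeR 4.0.16 and DESeq2 1.42.0 (both given the recovered reads), pseudocounts of 0.5 and 5, no filter or a minimum of 100, scaling to the same total and TMM, the compared conditions alone, the replicate number as a term, a fold change of at least 1.5, a group mean of at least 200, confinement thresholds of -1 and each library left out. The rule with the LPS libraries of 1 label alone was chosen after seeing the data. The pipeline was tested on simulated data, where limma recovered 198 of 200 changed genes and made 19 false calls among 17098 genes. The simulated spread was the same for all genes, a coefficient of variation of 0.06, and no labels were mixed. That test does not show how the fit behaves with the LPS libraries here.

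Genes named are the 8 with the highest nonconfined mean, the 10 with the most negative mean confinement difference, in each genotype comparison of nonconfined and confined cells the 3 most raised and 3 most lowered genes called without overlap, the 3 with the largest LPS difference, up to 4 per gene list or symbol class, and those beside each threshold. These name 43 of the 85, and 9 were added after their values were seen. Other members appear by symbol only, in lists or to complete a set, without values per library. A gene and a symbol class that this names are not reported here. Roles were grouped after membership was known. The members and the lists were chosen with earlier results of these data known. The protocol text in the labels mentions LPS for every sample, and titles and treatment entries were followed. Python 3.11.15 and matplotlib 3.10.9 drew the figures.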

Additional observations from a re-analysis of the deposited data

Results flagged for a closer look

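In 6 of the 85 genes, KO libraries lay above WT libraries in nonconfined cells and below them in confined cells, without overlap in either state, as in 3.42% of the rows tested. The difference between the 2 states was not tested. It equals the KO minus the WT confinement difference, and the rule used both, so nothing is read from this count. For Fscn1 the KO minus WT difference in log2(normalized count + 1) was 0.14 in nonconfined and -1.68 in confined cells. For Cd72 it was 0.79 (0.785) and -0.71, and for Grin2c 0.33 and -1.55. The Grin2c values were 0.20 (0.195) without nonconfined WT replicate 2 and -0.56 without confined KO replicate 1. Cacnb3 had 0.18 and -0.57, Npr1 had 0.48 and -0.42, and Cnp had 0.14 and -0.42. Fscn1, Cd72 and Npr1 were called in both states, while Cacnb3, Cnp and Grin2c were called in confined cells only.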

How the results depend on the processing

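The number of genes that met the rule was 81 to 91 without 1 library, and 48 with a group mean of at least 200. With the LPS libraries labelled WT alone 90 rows met the rule (81 of the 85 among them), and with those labelled KO alone 85 (82 of the 85), alternatives chosen after seeing the data. In nonconfined cells the genes called higher in KO were 10, 6 with no filter, 16 with DESeq2, 3 with a fold change of at least 1.5 and 4 to 10 without 1 library. The genes called lower there were 3, 5 with the compared conditions alone, 0 with a fold change of at least 1.5 and 1 to 2 without 1 library. In confined cells the genes called lower were 22, 14 with a fold change of at least 1.5 and 18 to 22 without 1 library, and those called higher were 14 and 11 to 13. In libraries labelled LPS, whose genotype labels go against Pla2g4a and Ddx3y, no gene was called without any 1 library (0 to 0). In either direction limma called 1588 of all rows tested in nonconfined cells, and DESeq2 called 2028. Shares of all rows under the other settings are not given, so nothing is read from these shifts. Their cause was not tested, apart from the stricter fold.

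The median confinement difference of -1.31 in WT was -1.22 with a pseudocount of 5, -1.53 with the same total per library and -1.36 with TMM scaling. In KO cells -1.52 became -1.35 (-1.355) with a pseudocount of 5. With the same total per library the median LPS difference changed from 0.46 to -0.026, that of KO against WT in confined cells from -0.14 to 0.009, and that in nonconfined cells from 0.10 to 0.068. That scaling moved the median of all rows tested by LPS to -0.46 and of KO against WT in confined cells to 0.19.

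Between WT and KO libraries sharing a replicate number, residuals correlated at 0.0112, 0.0412 and 0.00406 in nonconfined cells, at 0.338, 0.208 and 0.0402 in confined cells and at -0.142, -0.128 and -0.00489 in libraries labelled LPS. Pairs by number were therefore not formed. With the replicate block 11 genes were called higher and 2 lower in nonconfined KO cells, and 14 higher and 21 lower in confined KO cells. The shares of all rows called with this block are not given, so nothing is read from these counts. Of 1646 recomputed values for named genes, 1545 stayed on their side of the threshold, 65 lost the call and 36 gained it. The sign was opposite in 42 of them, and in no case was the opposite direction called.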
